A study of Mus musculus with 6 samples.

Results

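Genes that mark B cells, T cells, NK cells, red blood cells, neutrophils, platelets and plasma cells were examined in RNA from splenic type-2 conventional dendritic cells (cDC2s). The list held 41 gene symbols that are textbook markers of these lineages, matched to the data by symbol. Of these, 35 were among the 14788 symbols of the count table: 9 B cell, 12 T cell, 6 NK cell, 1 erythroid, 3 neutrophil, 3 platelet and 1 plasma cell gene. Prf1, Hba-a1, Hbb-b1, Ly6g, Elane and Pf4 were not analysed here. The cells came from spleens of C57BL/6 mice that were either wild type (WT, 3 libraries) or Arhgef1-/- (3 libraries, called the knockout below). Arhgef1 encodes an exchange factor that activates the GTPase RhoA. The labels name neither the deleted part of the gene, nor the cell types in which it was deleted, nor the age of the mice, nor how the cells were purified.

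A cDC2 presents antigen mainly to CD4 T cells and shares the spleen with very large numbers of B cells, T cells and red blood cells. RNA of those cells can enter a sorted population with whole cells, with cells bound to the dendritic cell, with engulfed material or as free RNA. Many lineage markers are parts of a receptor found in that lineage alone, such as the CD79 chains of the B cell receptor and the CD3 chains of the T cell receptor. Others, such as Cd22, Cd5 and Cd8a, are also known from dendritic cells. In bulk RNA, a few cells rich in a transcript and many cells poor in it cannot be told apart, nor can fewer cells of a type and less RNA per cell.

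Total counts per library ran from 8408325 to 11714365, so that 1 count was worth 0.0852 to 0.118 CPM (counts scaled to a common library size with TMM factors), and a gene with 0 counts could have up to 3 counts, or 0.256 to 0.353 CPM. These limits cover counting error only. Values of single libraries are given below in the order of replicates 1, 2 and 3. Arhgef1 was lower in every knockout library (114.7 to 144 CPM) than in every WT library (246 to 317 CPM). Per the labels, the WT libraries were read in lane 1 and the knockout libraries in lane 2, under different run names, so lane, run name and genotype cannot be told apart. The labels do not say that replicates came from separate mice. The p-values set the group difference against the variation among libraries of a group, and that variation may be technical. All 15 listed cDC2 markers were tested, and 8 fell in the knockout, among them Cd209a, Cd4 and Sirpa, named after their values were seen. The other 7, among them Cd74, Irf4 and Notch2, were not called by edgeR. Of all 11504 tested genes edgeR called 4.58% lower and 5.09% higher. The cDC2 sums were 33644 to 38187 CPM in WT and 29243 to 32058 CPM in the knockout, without overlap. Most of each sum came from Cd74, H2-Ab1 and H2-Aa, with means of 13067, 7603 and 5855.5 CPM. A list of 17 macrophage genes summed to 805 to 1259 CPM in WT and 290.1 to 462 CPM in the knockout, and 14 of them fell. The part of either list in the results below, including the falls of Cd72, Fcrl1, Icos, Klrd1 and Ccl5, was not tested.

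To compare levels between genes, CPM was divided by the exon length in kilobases. On that scale 6 of the 35 markers lay above the median of the 14552 symbols that had a length: Cd22, Tcf7, Cd79b, Cd5, S100a9 and Blk. The mean of S100a9 rested on knockout replicate 1, with 11.04 CPM there and 0.103 to 1.84 CPM elsewhere. Cd22 stood at 76.0 CPM per kb, above 97.5% of symbols. This was close to the cDC2 genes Notch2 at 72.2 and Irf4 at 87.0 CPM per kb and below Itgax, the CD11c gene, at 277 CPM per kb. Tcf7 stood at 27.2 CPM per kb, above 89.5% of symbols. The 9 markers that are known from dendritic cells or close relatives had a median of 2.17 CPM per kb, and the other 26 a median of 0.521 CPM per kb. The 9, chosen from background knowledge, were Blk, Cd22, Cd5, Cd8a, Gzmb, Nkg7, S100a8, S100a9 and Thy1. The first class was not uniformly higher, since it includes Gzmb at 0.254 CPM per kb, while Tcf7 and Cd79b belong to the second.

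**Figure D1:**
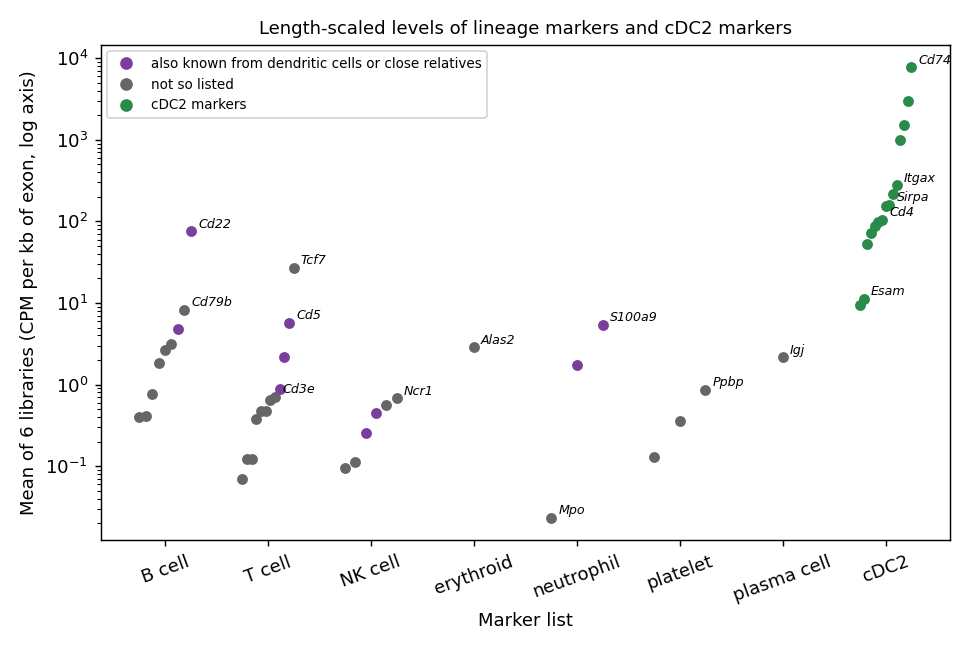
Mean length-scaled level over the 6 libraries (CPM per kb of exon, log axis) of each lineage marker, grouped by lineage, beside cDC2 markers. Cd22 at 76.0 and Tcf7 at 27.2 CPM per kb stand within the range of the cDC2 markers, while Mpo is at 0.0233.

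In raw counts the 35 markers together held 0.0527% to 0.0678% of a library. Cd22 alone made up 65.9% of them. Of the 35 genes 6 had a mean of 100 or more counts, 13 a mean of 10 to under 100 and 16 a mean under 10. Between 2 and 6 of them had 0 counts in a given library. The filter on low counts left 20 to be tested, and the other 15 are given by their counts alone.

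**Figure D2:**
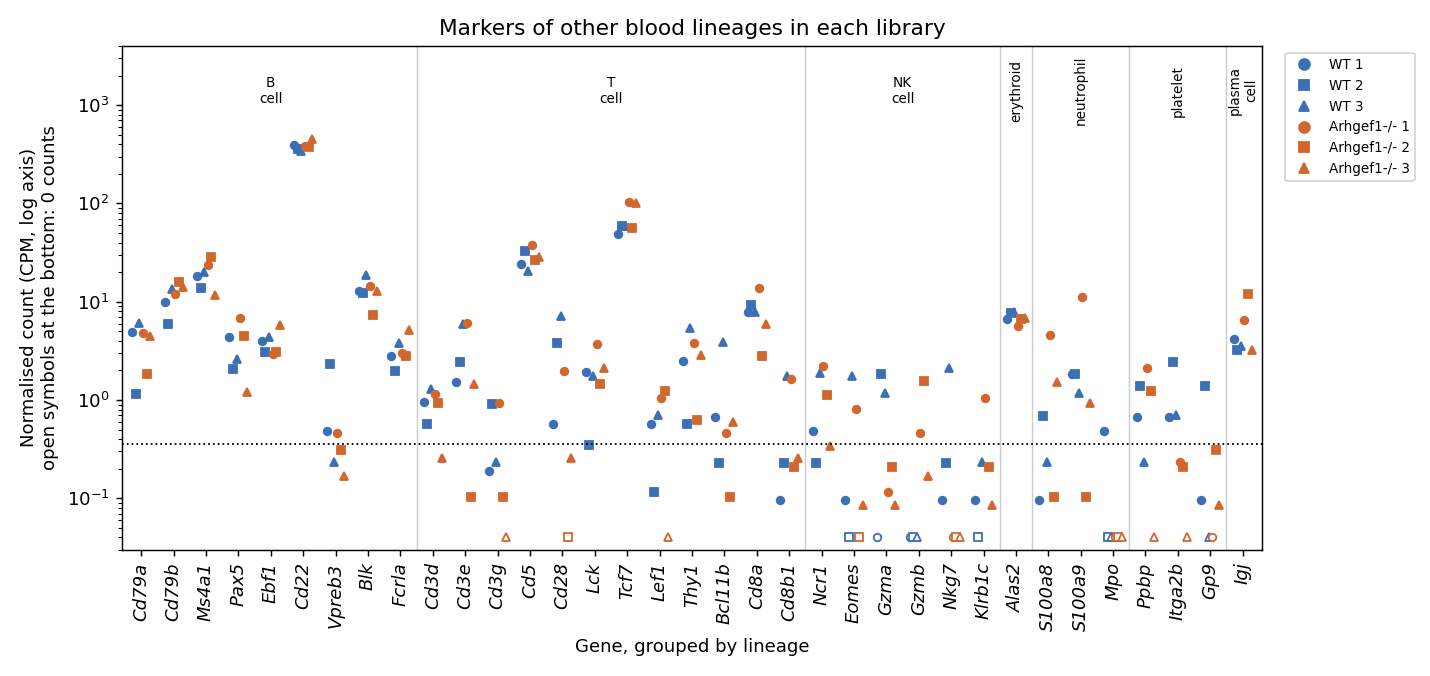
Normalised count (CPM, log axis) of each of the 35 markers in each library, with WT in blue and the knockout in orange and the symbol giving the replicate. Open symbols at the bottom are 0 counts and the dotted line is the highest value that 3 counts take in a library (0.353 CPM); most NK cell and platelet genes sit near or under it.

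The question that the genotype comparison answers for these genes is whether any lineage's transcripts differed between knockout and WT libraries. In the edgeR test across all genes, 1 of the 20 tested markers was called, Tcf7, which was higher in the knockout, and 0 were lower. That is 5% of the tested markers, while 9.67% of the 11504 tested genes were called, 5.09% higher and 4.58% lower. Before adjustment 3 of the 20 had a p under 0.05 (Tcf7, Cd28 and Igj), beside 22.3% of all tested genes. DESeq2 called 1 of the 20, of which Lck, Ncr1 and Ppbp were given no adjusted p. It called 12.7% of the genes it gave an adjusted p. Limma-voom called 0 of the 20 and 9.44% of all tested genes. The median log2 fold change of the tested markers was 0.28, beside 3e-04 over all tested genes. In 0 of the 20 did the knockout and WT values separate without overlap, against 27.2% of all tested genes. Of the 15 untested markers, Gzmb, Nkg7 and Itga2b had no overlap, with 21, 21 and 38 counts in all 6 libraries together.

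**Figure D3:**
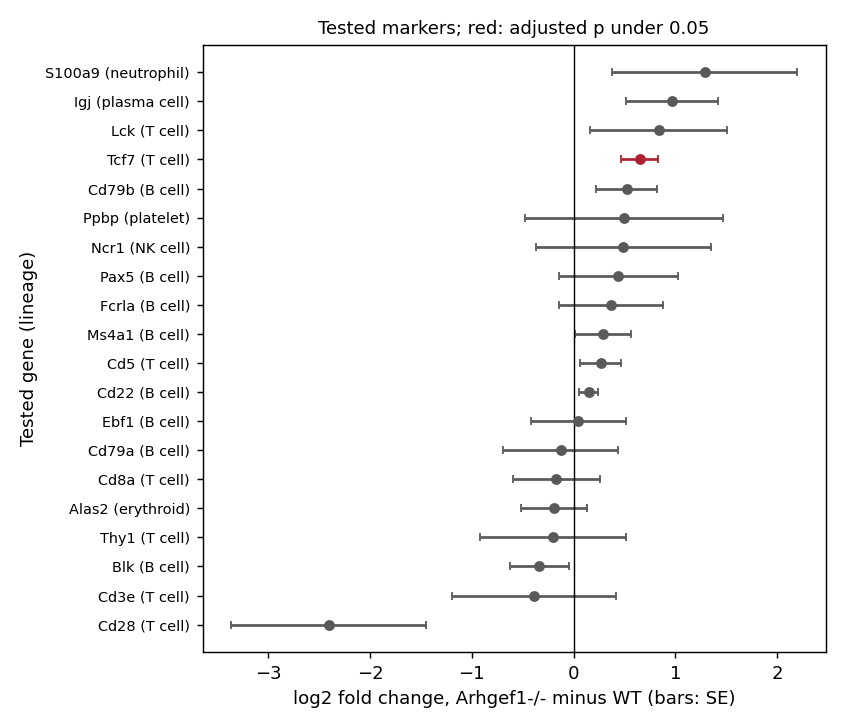
Log2 fold change (knockout minus WT) of the 20 tested markers with its SE, with the call at an adjusted p under 0.05 in red. Tcf7 at 0.65 is the only red point, and Cd28 at -2.41 has the lowest value with an SE of 0.96.

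Among the B cell genes, Cd22 and the B cell receptor chains stood at very different levels. Cd22 encodes an inhibitory, sialic acid-binding receptor (mm10 chromosome 7, 30865402 to 30880342, minus strand). WT libraries held 4128, 3095 and 2884 counts, and knockout libraries 3309, 3600 and 5318. After scaling this was 395, 356 and 340 CPM in WT and 385, 372 and 453 CPM in the knockout. The groups overlapped, with knockout replicate 3 highest (0.15 ± 0.09 on the log2 scale, SE; edgeR adjusted p = 0.371). Exons of Gm29439 on the opposite strand cover 9.5% of the Cd22 exon length, and the sources used here do not state whether reads were counted by strand.

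Ms4a1, the CD20 gene, was the next most abundant B cell member. It had 193, 120 and 170 counts in WT and 202, 278 and 139 in the knockout, or 18.5, 13.8 and 20.03 CPM and 23.5, 28.7 and 11.8 CPM. Knockout replicate 3, the highest library for Cd22, was the lowest for Ms4a1. Cd22 gave 12.9 to 38.3 counts for each count of Ms4a1. Against Cd79b, a signalling chain of the B cell receptor with 5.98 to 15.9 CPM, it gave 23.4 to 59.5 counts for each. The ratio of Cd22 to these B cell genes was thus not constant across libraries.

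Cd79a encodes the partner chain of Cd79b, and its gene lies beside the targeted one. It ends at position 24902197 of mm10 chromosome 7, 714 bases before the start of Arhgef1, with 0 other genes of the table between them. Its counts were 51, 10 and 52 in WT and 41, 18 and 53 in the knockout, with WT replicate 2 and knockout replicate 2 low. The groups differed by -0.13 ± 0.57 on the log2 scale (SE; edgeR adjusted p = 0.930), and the sign turned in several alternative fits. The chains of the pair did not keep a fixed ratio, with 2.02 to 8.56 counts of Cd79b for each count of Cd79a. In knockout replicate 2 Cd79b was at its highest, 15.9 CPM, while Cd79a was at 1.86 CPM.

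The B cell transcription factor genes Pax5 and Ebf1 had 14 to 59 and 25 to 68 counts per library. Pax5 ranged from 1.19 CPM in knockout replicate 3 to 6.86 CPM in knockout replicate 1, while Ebf1 was highest in knockout replicate 3, at 5.79 CPM. Blk, a Src family kinase of B cells that plasmacytoid dendritic cells also express, had 71 to 158 counts and was lowest in knockout replicate 2. Fcrla, an intracellular Fc receptor-like protein, had 17 to 60 counts. Vpreb3, which binds immunoglobulin chains in developing B cells, had 20 counts in WT replicate 2 and 2 to 5 elsewhere. None of the 8 tested B cell members was called by edgeR, and 0 had an unadjusted p under 0.05 or a call by DESeq2 or limma-voom.

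Summed without Cd22 and Blk, the B cell members came to 44.9, 30.4 and 50.5 CPM in WT and 53.6, 57.1 and 42.6 CPM in the knockout. The groups overlapped, with means of 41.9 ± 10.4 and 51.1 ± 7.59 CPM (SD, n = 3 each). In a wider list of 14 B cell genes, 12 were in the table and tested, 0 rose and 2 fell. Of all tested genes 5.09% rose and 4.58% fell. Cd72, a coreceptor of the B cell receptor, went from 69.3 ± 3.26 to 49.4 ± 8.97 CPM (edgeR adjusted p = 0.0421). Fcrl1, an Fc receptor-like molecule, went from 102 ± 20.4 to 71.2 ± 6.27 CPM (edgeR adjusted p = 0.0246). The call of Cd72 was lost when any library but knockout replicate 3 was left out (log2 fold change -0.41 to -0.51). It was also lost under scaling by total counts. That of Fcrl1 was lost without WT replicate 2 (-0.55) or 3 (-0.35), and without knockout replicate 1 (-0.47) or 2 (-0.50). Pou2f2, the OCT2 gene, was the most abundant of the wider list, at 149 ± 22.7 and 132 ± 22.9 CPM (edgeR adjusted p = 0.477).

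Tcf7 was the most abundant T cell member and the only called marker. It encodes TCF-1, an HMG-box transcription factor of T cell and innate lymphoid development (mm10 chromosome 11, 52252371 to 52283014, minus strand). Its counts were 513, 511 and 501 in WT and 890, 545 and 1192 in the knockout. After scaling, WT stood at 49.1, 58.8 and 59.0 CPM and the knockout at 103, 56.3 and 102 CPM. Knockout replicates 1 and 3 were above every WT library, and knockout replicate 2 lay within the WT range. The group means of 55.6 ± 5.67 and 87.1 ± 26.7 CPM (SD, n = 3 each) differed by 0.65 ± 0.18 on the log2 scale (SE), which passed the test (edgeR adjusted p = 0.0307).

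The call of Tcf7 was lost in limma-voom (0.61, limma adjusted p = 0.0533). Leaving out 1 library also ended it in 5 of 6 cases: any WT library (0.56, 0.69 and 0.69 without replicates 1, 2 and 3), knockout replicate 1 (0.51) or knockout replicate 3 (0.52). Without knockout replicate 2 the log2 fold change was 0.88 (edgeR adjusted p = 0.00123). Macrophage sums were 1259, 956 and 805 CPM in WT and 462, 290.1 and 305 CPM in the knockout. Their part in the Tcf7 values was not tested.

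**Figure D4:**
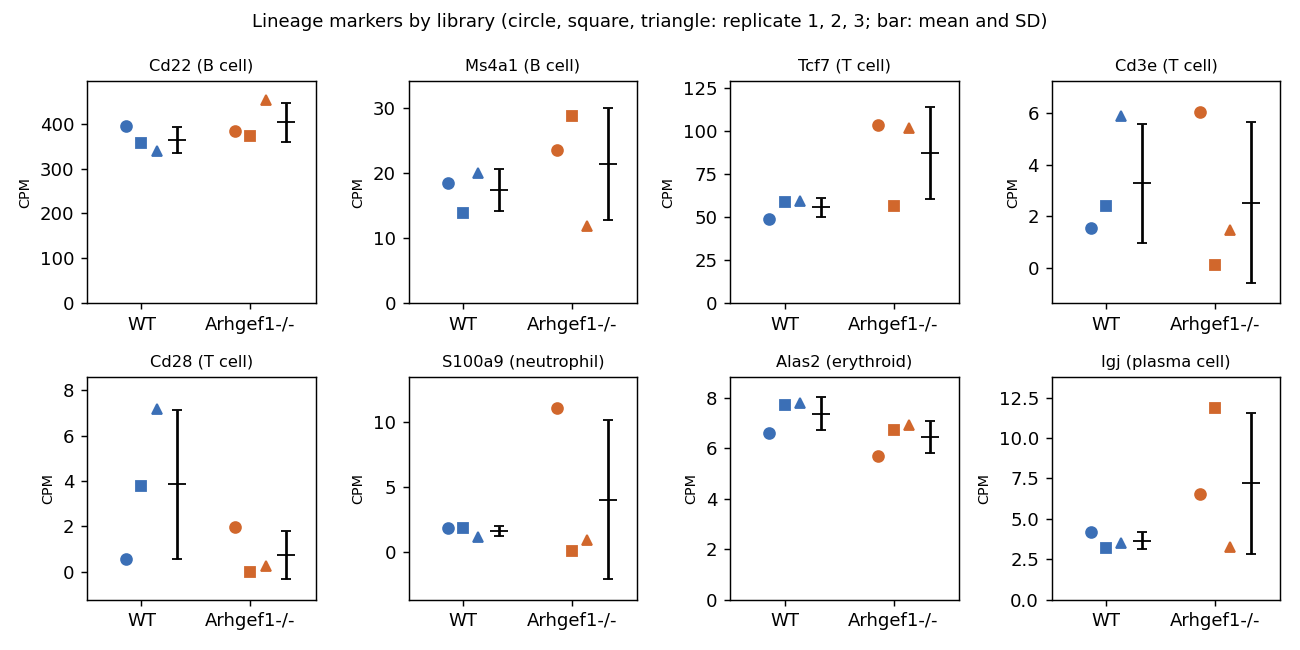
Normalised count (CPM) of chosen markers in each library (circle, square and triangle for replicates 1, 2 and 3), with the mean and SD of each group in black. Tcf7 is at 103 and 102 CPM in knockout replicates 1 and 3 and at 56.3 CPM in replicate 2, and S100a9 is high only in knockout replicate 1, at 11.04 CPM.

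Cd5, an inhibitory receptor of T cells, B-1 cells and some dendritic cells, had 251, 282 and 174 counts in WT and 322, 255 and 338 in the knockout. This was 24.0, 32.4 and 20.5 CPM against 37.4, 26.3 and 28.8 CPM, with overlapping groups (0.26 ± 0.20, SE; edgeR adjusted p = 0.495). Cd8a, which splenic cDC1s and plasmacytoid cells also express, ranged from 2.79 CPM in knockout replicate 2 to 13.7 CPM in knockout replicate 1. Its usual T cell partner Cd8b1 had 1 to 15 counts. Of 9 cDC1 genes in the data, 4 were highest in knockout replicate 1, 3 in WT replicate 1, 1 in WT replicate 2 and 1 in knockout replicate 3. The 4 in knockout replicate 1 were Xcr1 (29.8 CPM there), Clec9a (33.5), Irf8 (53.9) and Itgae (9.53), named after their values were seen. The cDC1 sum was highest in WT replicate 2, at 2162 CPM, and stood at 1984 CPM in knockout replicate 1. Most of that sum was Wdfy4, which had 1749 to 1957 CPM per library and was highest in WT replicate 2. The part of cDC1s in the Cd8a values was not tested.

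Of the CD3 chains, which carry the signal of the T cell receptor, Cd3d and Cd3g were near the counting limit. Cd3d had 3 to 11 counts per library and Cd3g 0 to 8. Cd3e had 16, 21 and 50 counts in WT and 52, 1 and 17 in the knockout, high in WT replicate 3 and knockout replicate 1. In the 5 libraries with more than 3 counts of Cd3e, Tcf7 gave 10.02 to 70.1 counts for each of them.

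Cd28, the costimulatory receptor of T cells, had 6, 33 and 61 counts in WT and 17, 0 and 3 in the knockout. The groups overlapped, since knockout replicate 1 lay above WT replicate 1. The difference of -2.41 ± 0.96 on the log2 scale (SE) did not pass the test (edgeR adjusted p = 0.134), but without knockout replicate 1 it was -4.68 and passed (edgeR adjusted p = 0.0204). Bcl11b, a factor of T cell commitment, had 33 of its 54 counts in WT replicate 3. Thy1, a surface marker of T cells, had 5 to 46 counts, and the T cell kinase gene Lck 3 to 32. Lef1, a relative of Tcf7, had 0 to 12 counts, so the pair differed widely in level (0.0698 CPM per kb for Lef1).

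Without Tcf7, Cd5, Cd8a and Thy1, the other 8 T cell members summed to 6.51, 8.62 and 22.7 CPM in WT and 17.0, 4.13 and 4.94 CPM in the knockout. WT replicate 3 and knockout replicate 1 stood above the rest, 1 from each genotype. Of the 12 T cell members 11 had their highest CPM in these 2 libraries (5 in the first and 6 in the second). This count is not independent of the sum, which holds 8 of the 12. The share of all genes highest in these libraries was not computed. Some peaks were narrow, as for Cd3d with 11 counts in WT replicate 3 and 10 in knockout replicate 1. Of a wider list of 17 T cell genes 9 were tested, 0 rose and 1 fell, beside 5.09% and 4.58% of all tested genes. That gene, Icos, went from 76.0 ± 7.96 to 46.3 ± 15.2 CPM (edgeR adjusted p = 0.0242). Icos encodes a costimulatory receptor of activated T cells. Its call was lost without any of the WT libraries (-0.76, -0.75 and -0.62 in replicate order) and without knockout replicate 2 (-0.47). Ptpn22, a phosphatase of many leukocytes, was the most abundant gene of that list, at 399 ± 13.4 and 339 ± 7.02 CPM (edgeR adjusted p = 0.0697). Its unadjusted edgeR p was 0.00797. DESeq2 called 2 genes of that list and limma-voom 1.

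The NK cell members were at or near the counting limit in most libraries, with summed counts of 8, 20 and 61 in WT and 40, 30 and 9 in the knockout. Ncr1, the NKp46 receptor gene, had 5, 2 and 16 counts in WT and 19, 11 and 4 in the knockout, and was the only one tested (0.49 ± 0.86, SE; edgeR adjusted p = 0.802). The granzyme gene Gzma had 0, 16 and 10 counts in WT and 1, 2 and 1 in the knockout. Gzmb had 0 counts in all WT libraries and 4, 15 and 2 in the knockout. Nkg7, a cytotoxic granule gene, had 1, 2 and 18 counts in WT and 0 in all knockout libraries. For both, 1 library held most of the counts. Eomes, a transcription factor of NK cells, had 0 to 15 counts, and Klrb1c, the NK1.1 gene, 0 to 9.

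A wider NK cell list had members at far higher levels. Of 15 such genes in the data, 10 were tested, 1 rose and 2 fell, beside 5.09% and 4.58% of all tested genes. These 3 genes kept their calls in all 14 alternatives. Klrk1, the NKG2D gene, went from 11.9 ± 0.132 to 26.5 ± 6.01 CPM (1.15, edgeR adjusted p = 0.00286). Klrd1, the CD94 gene, went from 181 ± 8.88 to 122 ± 18.8 CPM (-0.57, edgeR adjusted p = 0.0032), and the chemokine gene Ccl5 from 99.6 ± 15.9 to 58.3 ± 13.0 CPM (-0.77, edgeR adjusted p = 0.00384). Klrd1 stood at 118 CPM per kb, while its usual partner Klrc1, named after its values were seen, had 1 to 6 counts per library.

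The only erythroid member in the table was Alas2, the first enzyme of heme synthesis in red blood cell precursors. It had 69, 67 and 66 counts in WT and 49, 65 and 81 in the knockout, or 6.60, 7.70 and 7.78 CPM and 5.70, 6.72 and 6.90 CPM. The groups overlapped (-0.19 ± 0.33, SE; edgeR adjusted p = 0.797). Its coefficient of variation between replicates was 8.95% in WT and 10.1% in the knockout, under the 12.2% and 12.4% that counting alone gives. Exons on the opposite strand, including those of the DNA repair gene Apex2 at 43 to 100 counts, cover 15.5% of the Alas2 exon length. In the wider erythroid list 4 of 13 genes in the table were tested and 0 were called by edgeR, DESeq2 or limma-voom, 0 of them with an unadjusted p under 0.05. Slc4a1, the band 3 anion exchanger gene, had 105, 55 and 99 counts in WT and 121, 192 and 23 in the knockout. It was highest in knockout replicate 2 and lowest in knockout replicate 3, unlike the even Alas2. Ermap, an erythroid membrane protein gene, had 27, 4 and 31 counts in WT and 1, 54 and 32 in the knockout. The wider list summed to 19.8, 10.3 and 22.4 CPM in WT and 23.1, 37.3 and 6.13 CPM in the knockout. Of its 12 genes with at least 10 counts, 7 were highest in knockout replicate 2. Another 2 each peaked in WT replicate 3 and knockout replicate 1, and 1 in WT replicate 1.

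Of the 3 neutrophil members, S100a9 and S100a8 were highest in knockout replicate 1. S100a9 and S100a8 encode the subunits of calprotectin, abundant in neutrophils and monocytes. S100a9 had 19, 16 and 10 counts in WT and 95, 1 and 11 in the knockout. S100a8 had 1, 6 and 2 counts in WT and 39, 1 and 18 in the knockout. Knockout replicate 1 held 62.5% of all S100a9 counts and 58.2% of those of S100a8, while knockout replicate 2 had 1 count of each. S100a9 was not called (1.29 ± 0.91, SE; edgeR adjusted p = 0.444), and its log2 fold change without knockout replicate 1 was -1.57. Mpo, the myeloperoxidase gene of granulocyte precursors, had 5 counts in WT replicate 1 and 0 elsewhere.

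Lcn2, Ltf and Ngp of the wider neutrophil list, named after their values were seen, were also highest in knockout replicate 1. They were 3 of the 8 genes of that list with at least 10 counts. Of the others, Mmp9, Csf3r and Stfa2l1 were highest in WT replicate 3, Cxcr2 in WT replicate 2 and Trem1 in knockout replicate 3. Lcn2 had 42 of its 46 counts there, Ltf 38 of 56 and Ngp 36 of 75. Knockout replicate 3 had 13 counts of Ltf and 25 of Ngp but 1 of Lcn2. The most abundant genes of that list, Mmp9 and the receptor gene Csf3r, did not follow. Mmp9 had 136 counts in knockout replicate 1 and 121 to 243 elsewhere, and Csf3r had 49 there and 35 to 88 elsewhere. None of the 4 tested genes of the wider list was called by edgeR, DESeq2 or limma-voom, and 1 of them, Mmp9, had an unadjusted p under 0.05. Of 12 monocyte genes, 1 was highest in knockout replicate 1, 6 in WT replicate 1, 4 in WT replicate 3 and 1 in knockout replicate 3.

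**Figure D5:**
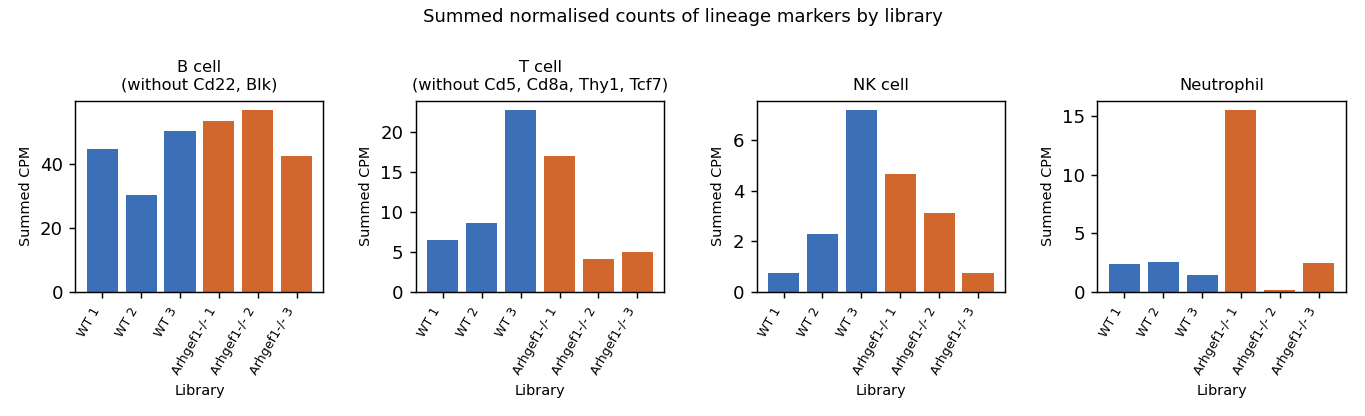
Summed CPM of the B cell markers without Cd22 and Blk, the T cell markers without Cd5, Cd8a, Thy1 and Tcf7, the NK cell markers and the neutrophil markers in each library, WT in blue and the knockout in orange. The T cell sum is highest in WT replicate 3 (22.7 CPM) and knockout replicate 1 (17.0 CPM), and the neutrophil sum in knockout replicate 1 (15.6 CPM).

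The platelet members were sparse, and 2 of the 3 were highest in WT replicate 2. Ppbp, a platelet granule chemokine, had 7, 12 and 2 counts in WT and 18, 12 and 0 in the knockout (0.50 ± 0.97, SE; edgeR adjusted p = 0.825). Itga2b, the integrin alpha-IIb gene, had 7, 21 and 6 counts in WT and 2, 2 and 0 in the knockout, too few to be tested. Gp9, a chain of the von Willebrand factor receptor, had 12 of its 17 counts in WT replicate 2. Of the 8 wider platelet genes with at least 10 counts, 3 were highest in WT replicate 2, 2 in knockout replicate 1 and 1 each in WT replicate 1, WT replicate 3 and knockout replicate 2. Of 10 wider platelet genes in the data, 5 were tested, 0 rose and 1 fell, beside 5.09% and 4.58% of all tested genes. That gene, Vwf, which endothelial cells also make, went from 13.9 ± 2.95 to 6.57 ± 2.04 CPM (edgeR adjusted p = 0.0314). That call was lost when any library but knockout replicate 2 was left out (-0.89 to -1.18). Itgb3, the partner of Itga2b, stood at 83.0 ± 17.6 and 77.4 ± 19.4 CPM (edgeR adjusted p = 0.7997). The signalling regulator gene Rgs18 stood at 50.2 ± 1.55 and 54.5 ± 7.58 CPM (edgeR adjusted p = 0.696). At 13.6 CPM per kb Itgb3 was far above Itga2b at 0.129 CPM per kb.

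The plasma cell member Igj encodes the joining chain of secreted IgM and IgA (mm10 chromosome 5, 88519809 to 88527891, minus strand, there named Jchain). It had 44, 28 and 30 counts in WT and 56, 115 and 38 in the knockout, or 4.21, 3.22 and 3.53 CPM against 6.51, 11.9 and 3.24 CPM. Knockout replicate 3 lay within the WT range and knockout replicate 2 was highest. The difference of 0.97 ± 0.45 on the log2 scale (SE) did not pass the test (edgeR adjusted p = 0.215). Without knockout replicate 2 the log2 ratio of the group means was 0.42, against 0.98 with all libraries. Of 17 genes in the wider plasma cell list, 6 were in the data and 3 were tested. Immunoglobulin constant genes of the list, such as Igkc and Igha, were not among them. Of the 3 tested genes, 0 were called by edgeR, DESeq2 or limma-voom, and 0 had an unadjusted p under 0.05. Xbp1, the secretory program regulator, was at 66.2 ± 1.45 and 75.9 ± 14.3 CPM (edgeR adjusted p = 0.448), and Prdm1, the Blimp-1 gene, at 14.7 ± 6.07 and 9.61 ± 2.37 CPM (edgeR adjusted p = 0.268). Sdc1, the CD138 gene, named after its values were seen, had 0 to 2 counts per library.

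The library with the highest CPM was noted for each marker. The share of all genes highest in each library was not computed, so such counts, here and above, cannot be set against it. Some of the markers were sparse, such as Klrb1c with 15 counts in all and Gp9 with 17. Of the 34 markers with at least 10 counts in all, 12 were highest in knockout replicate 1, 10 in WT replicate 3, 5 in knockout replicate 2, 4 in WT replicate 2, 3 in knockout replicate 3 and 0 in WT replicate 1. Among these markers, 5 of 12 T cell genes peaked in WT replicate 3 and 6 in knockout replicate 1. S100a8 and S100a9 peaked in knockout replicate 1, 2 of 3 platelet genes in WT replicate 2 and Igj in knockout replicate 2. Of 16 wider T cell genes with at least 10 counts, 5 were highest in WT replicate 3 and 4 in knockout replicate 1. Another 3 peaked in WT replicate 1, 2 in knockout replicate 2 and 1 each in WT replicate 2 and knockout replicate 3. Of 12 such wider erythroid genes, 7 were highest in knockout replicate 2. The summed NK cell members were highest in WT replicate 3, at 7.19 CPM, and lowest in WT replicate 1, at 0.765 CPM. Summed over all members, each lineage had overlapping WT and knockout libraries.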

How the data were processed

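The deposited table holds unnormalized read counts by gene symbol in the 6 libraries. STAR, HTSeq, DESeq2 and the mm10 build are named in the submitters' processing notes; the sources used here do not state versions, annotation, strand setting or gene filter. Columns were assigned by the titles in the labels. Replicate pairs of a group differed by more than sampling noise (chi-square per degree of freedom 8.16 to 13.9).

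Markers were taken by symbol; members and lists were chosen with earlier results of these data known. All members may be named; library values are given for the 2 most abundant of each lineage, called members and those with 0 counts in a whole group, and among wider lists for called genes and the 2 most abundant; Cd79a, Cd3e, Cd28 and the other members with library values were added after their values were seen. The test was that of edgeR 4.0.16, run in R 4.3.3 (filterByExpr, TMM, quasi-likelihood, Benjamini-Hochberg over all 11504 tested genes, adjusted p under 0.05); SEs come from the fold change and F statistic. The script was tested on simulated data. Lineage sums were not tested. Exon lengths and positions came from GENCODE vM21 on mm10, which matched 14552 symbols and all 35 members. Alternatives were other scalings and filters, DESeq2 1.42.0, limma-voom (limma 3.58.1), a replicate block and leaving out each library.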

Additional observations from a re-analysis of the deposited data

How the results depend on the processing

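Over all genes 1113 were called; the count was 598 to 1072 when 1 library was left out. Of the markers 1 was called, and 0 to 1 when 1 library was left out; without knockout replicate 1 the called marker was Cd28 in place of Tcf7, and limma-voom called 0. Tcf7 kept its direction in all 14 alternatives (0.51 to 0.88) and its call in 8. With the replicate number as a block 945 genes and 1 marker were called, and the call of Cd72 was lost (-0.50, edgeR adjusted p = 0.0509); deviations of same-numbered libraries had correlations of -0.037 to 0.043, so the numbers were not taken to pair samples, and not every library correlated best with its own number. Markers that were not called changed sign in some fits. In limma-voom the log2 fold change was 0.046 for Cd79a, -0.68 for Ppbp and -0.57 for S100a9, and with the block 0.014 for Cd79a and -0.011 for Ebf1. Over fits without 1 library it ran from -0.56 to 0.29 for Cd79a, -0.35 to 0.22 for Ebf1, -0.11 to 0.89 for Pax5, -2.01 to 0.35 for Cd3e, -0.68 to 0.65 for Thy1, -0.93 to 0.22 for Cd8a, -0.22 to 1.71 for Ncr1, -1.57 to 1.86 for S100a9 and -0.34 to 1.21 for Ppbp. The log2 ratio of the B cell sums went from 0.15 to 0.29 without the genes known from dendritic cells, and that of the T cell sums from 0.38 to 2e-04 without Tcf7. Sums of sparse lineages turned sign without 1 library: neutrophil from 1.53 to -0.66 without knockout replicate 1, NK cell from -0.27 to 0.89 without WT replicate 3 or 0.18 without knockout replicate 3, and platelet from -0.86 to 0.22 without WT replicate 2. The cause was not tested. The neutrophil sum without genes known from dendritic cells, which leaves Mpo alone, and the erythroid and plasma cell sums without their most abundant gene could not be given. Of the 35 markers 16 had a mean under 10 counts, where 1 library can hold most of a gene's counts, and 15 were too low to be tested.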
